A study of Homo sapiens with 55 samples.

Results

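Tandem 3′ UTR events are pairs of mRNA ends in 1 terminal exon: the 3′ untranslated region (UTR) begins at the same base and stops either at a near end or, after an extension, at a far end. All events whose identifier in the deposited isoform tables marks a tandem UTR were taken, 2652 of the 110818 events in each of 4 tables. The value of an event is the percentage of its transcripts estimated to carry the shorter UTR. The extension runs from 100 to 12225 nucleotides with a median of 596.5. It is at most 300 nucleotides in 762 events, then up to 1000 in 1029, up to 2500 in 658 and over 2500 in 203, which make the 4 length classes. Genes were named for 2541 events.

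The 3′ end of an mRNA is made by cleavage and polyadenylation, which the CPSF and CstF complexes carry out a short way downstream of a hexamer, most often AAUAAA. A gene with a near and a far signal can make a short or a long UTR, and the extension can hold microRNA sites and other elements that act on stability, translation or localisation. The U1 small nuclear ribonucleoprotein and several splicing factors, SR proteins among them, are known to influence which signal is used.

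The study asked how deletion of GPATCH8, which encodes a G-patch domain protein, affects RNA splicing in human lines with and without splicing factor mutations. In the SF3B1 panel, K562 leukaemia cells carried a knock-in of SF3B1 K700E or were WT for it. SF3B1 is the U2 component that helps select branch points, and SUGP1 is a G-patch partner of it. Each genotype was given guides against GPATCH8 (2 libraries, guides 16 and 17), against SUGP1 (2 libraries, guides 3 and 4) or against Renilla luciferase (sgRenilla, 1 library), a sequence that human cells lack. Every library of this panel has values from 2 sequencing runs, which were kept apart because they were not taken as independent samples. The labels do not say whether a library was sequenced again or made anew for run 2. In the SRSF2 panel, K562 cells overexpressed SRSF2 P95H or WT SRSF2, and in the U2AF1 panel U2AF1 S34F or WT U2AF1. SRSF2 is an SR protein that binds exonic enhancers, and U2AF1 reads the 3′ splice site. Both overexpression panels had sgGPATCH8 and sgRenilla with 3 libraries in each group. The 293T panel, from a human embryonic kidney line without an introduced mutation, had 4 sgGPATCH8 libraries (guides 16 and 17), 4 sgSUGP1 libraries (guides 3 and 4) and 2 sgRenilla libraries.

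All cells that carry a mutant or overexpressed factor are K562, and the labels do not say whether a line is 1 clone or whether replicates are separate cultures, so p-values measure the spread between these libraries only. The tables hold isoform percentages and no gene levels, so neither the identity of the lines by marker genes nor the loss of GPATCH8 and SUGP1 was checked here. Read depth is unknown, and no counting interval is given. In the U2AF1 panel the replicate 1 libraries stand apart: in 139 of the 2253 members with a value in all 12 libraries, all 4 replicate 1 libraries lay outside the range of the other 8, against 5 members for replicate 2 and 9 for replicate 3. In the SF3B1 panel 5 libraries stand apart in run 2, as described with those results.

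The last 30 nucleotides of both UTRs are shown for the events on which the results turn, to let the signals at the near and far ends be compared. They are read from GENCODE 29 transcripts, 5′ to 3′ on the gene's strand, as DNA, with AATAAA or ATTAAA in capitals where one occurs. The positions are those of the longer UTR in the deposited tables, build hg19, and all lie in the 3′ UTR of the terminal exon. PDE11A lies at chr2:178492810-178494133 (minus strand), HEATR1 at chr1:236713641-236714200 (minus), ACP1 at chr2:277304-278283 (plus) and HMGA2 at chr12:66357072-66359999 (plus). SELENOP lies at chr5:42799985-42800820 (minus), ARG2 at chr14:68117637-68118425 (plus), STXBP5 at chr6:147705891-147706834 (plus) and DENND1A at chr9:126141935-126143709 (minus).
PDE11A shorter end: cactgaacagtaaaagcgtcattagcgctg
PDE11A longer end: caAATAAAtctttcaatgaatccccaacat
HEATR1 shorter end: agaaagagtaaatgatacacggtattttta
HEATR1 longer end: agagaagtggttctggaatgctttttttaa
ACP1 shorter end: ggagaatcAATAAAaatctttgattcagac
ACP1 longer end: gagttataaaaatacaactagagatataaa
HMGA2 shorter end: gtttttttaATTAAAaatttttaaaatact
HMGA2 longer end: tctgcacAATAAAcataacagcctctgtga
SELENOP shorter end: atcacacatgAATAAAgcctttgtatcttt
SELENOP longer end: tgtccaAATAAAttcAATAAAaaccttaaa
ARG2 shorter end: gtcataaacagcatttattaccttggtata
ARG2 longer end: actgagacAATAAAaaccaaagcataaaaa
STXBP5 shorter end: tttaaatAATAAAaacatacacatagttga
STXBP5 longer end: gcttgaatttttataaaatgtttaaccaaa
DENND1A shorter end: tagcaatatacacacacgttctttcctgtg
DENND1A longer end: gtgtgcattcAATAAAatcatcttggggaa

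Over the members, AATAAA stood in the last 40 nucleotides of 44.6% of 2532 shorter ends and 65.4% of 2351 longer ends that could be read, and ATTAAA without AATAAA in 16.6% and 16.7%. Neither hexamer was there in 38.7% of the shorter and 17.9% of the longer ends. Of 89112 non-overlapping windows of that length along the longer UTRs, 3.5% held AATAAA and 2.4% ATTAAA. Hexamers were searched on the transcript strand only. A match or its absence is a property of the window and says nothing about binding.

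In all control cells the shorter UTR was used less where the extension was longer. With sgRenilla, median usage in WT SRSF2 cells was 53.0% for extensions of up to 300 nucleotides, 36.7% for the next class up to 1000, 22.3% for that up to 2500 and 19.0% for over 2500. In 293T cells the same medians were 52.0%, 33.0%, 19.8% and 20.5%. The 4 control groups thus shared the fall over the first 3 length classes, while the last 2 classes differed little.

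Usage also went with the hexamer. In WT SRSF2 cells with sgRenilla the median was 48.0% for the 1006 events whose shorter end holds AATAAA, 38.7% for 375 with ATTAAA alone and 21.0% for 876 with neither. At the longer end the order was the other way round, with 32.7% for AATAAA, 37.8% for ATTAAA and 45.2% for neither. Within the shortest extension class the median was still 61.3% with AATAAA at the shorter end and 39.5% with neither. 293T cells gave the same order at the shorter end, with 46.2%, 36.0% and 19.5%. These are descriptions over events, with no test.

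**Figure D1:**
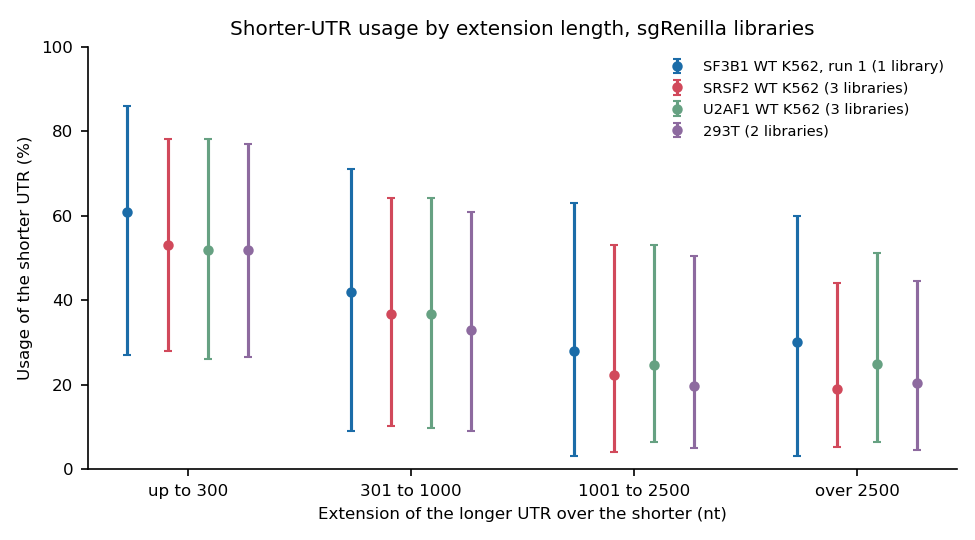
Usage of the shorter UTR (percent, vertical axis) by extension length (nucleotides, horizontal axis) in the sgRenilla libraries of 4 control groups. Points are medians over events and bars run from the first to the third quartile; in WT SRSF2 cells the medians are 53.0%, 36.7%, 22.3% and 19.0%, and the quartiles overlap between classes.

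SF3B1 K700E cells used the shorter UTR less than WT cells in most members of run 1. Of 1891 events tested there, 1416 had a lower and 448 a higher mean, and the median difference was -2.83 percentage points, against 0.33 over all 48422 events of every type. By limma with Benjamini-Hochberg adjustment over all events, a call needing an adjusted p under 0.05 and at least 5 points, 6 members fell and 2 rose; over all events tested 0.101% were called with the first isoform lower and 0.14% with it higher. At an unadjusted p under 0.05, 345 members (18.2%) were lower and 49 (2.59%) higher, beside 6.83% and 9.84% of all events. In run 2, 21 of 2065 members fell and 6 rose, with 0.214% and 0.356% of all events called in those directions. At an unadjusted p under 0.05, 360 (17.4%) were lower and 97 (4.7%) higher in run 2, beside 6.73% and 11.2% of all events, and the median difference was -1.67 points. With the values of both runs averaged for each library, 121 of 2007 members were called lower and 14 higher, 135 in all, so the count of calls depends on how the runs are treated.

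The spread in each run comes from 4 pairs of guides, and both runs lost every call when any 1 of the 8 sgGPATCH8 or sgSUGP1 libraries was left out. The median of run 1 stayed between -1.67 and -3.0 points under every alternative tried. That of run 2 turned to 2.25 points without the sgGPATCH8 libraries and to 0.75 points without the sgSUGP1 libraries, with 0 calls each, and to -9.25 points with 374 calls without the sgRenilla libraries. The sign of the median therefore depended on the guide target in run 2 and not in run 1.

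The share of members lower in K700E cells grew with the extension in both runs. In run 1, with an unadjusted p under 0.05, 10.8% of the events extended by up to 300 nucleotides were lower, 16.1% of the next class up to 1000, 25.7% of that up to 2500 and 36.7% of the 139 extended by over 2500. The shares higher in K700E cells were between 1.09% and 5.04% in the same classes. In run 2 the shares lower were 10.8%, 17.8%, 21.2% and 29.4%. In run 1 the median differences were -2.17, -2.83, -3.33 and -5.0 points from the shortest to the longest class. The difference between classes was not tested.

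**Figure D2:**
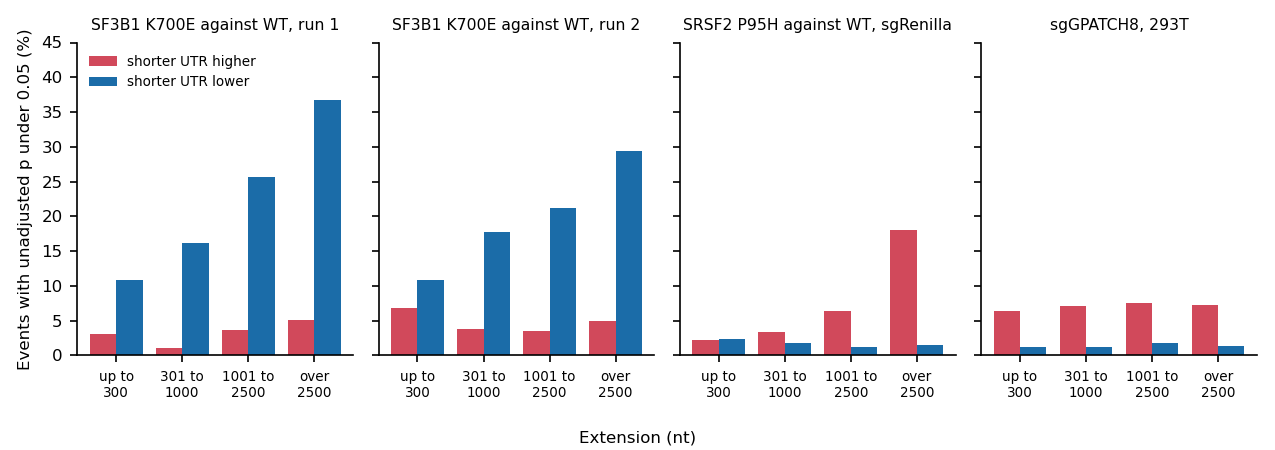
Share of tested events (percent, vertical axis) with an unadjusted p under 0.05, by extension length (nucleotides), for 4 comparisons, split into those with the shorter UTR higher (red) and lower (blue). The blue bars of SF3B1 K700E against WT climb to 36.7% in run 1 and 29.4% in run 2, the red bar of SRSF2 P95H against WT reaches 18% in the longest class, and the bars of sgGPATCH8 against sgRenilla in 293T are nearly level.

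Of 1859 members tested in both runs, 138 were lower and 11 higher in K700E cells at an unadjusted p under 0.05 in each run (7.42% and 0.592%), and 7 went opposite ways. Over the 44192 events of every type tested in both runs, 2.0% were lower and 4.19% higher in each. The runs were taken as repeat measurements of the same libraries, which the labels do not state, and are no independent replication. All 8 members called in run 1 had the same sign in run 2, and 24 of the 26 called in run 2 that were tested in run 1 had the same sign there. PDE11A, HEATR1, ACP1, ALDH5A1 and SELENOP were called in both.

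PDE11A encodes a cyclic nucleotide phosphodiesterase. In run 1 its shorter UTR was used in 1, 3, 1, 1 and 0% of transcripts in K700E cells (sgRenilla, 2 sgGPATCH8 and 2 sgSUGP1 libraries in this order), against 39, 24, 27, 12 and 20% in WT cells. In run 2 it was used in 4, 1, 1, 1 and 0% in K700E cells, against 26, 27, 52, 11 and 30% in WT cells. The groups did not overlap in either run, and with every guide the shorter UTR, whose end holds neither hexamer in the sequence above, was near absent in K700E cells. The difference in run 1 was -25.7 points (log2 ratio -4.14, SE 0.35, limma adjusted p = 0.0258).

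ACP1, a low-molecular-weight tyrosine phosphatase, was also lower in K700E cells, from a lower WT level. In run 1 its shorter UTR had 2, 1, 2, 3 and 1% in K700E cells, against 18, 14, 12, 14 and 12% in WT cells. In run 2 the values were 1, 1, 2, 0 and 0% in K700E cells, against 15, 13, 12, 4 and 8% in WT cells. No K700E library reached a WT library of its run, and the difference in run 1 was -12.8 points (limma adjusted p = 0.0364). K562 cells with overexpressed SRSF2 or U2AF1, with no K700E listed, had 0 to 3%, as low as the K700E cells. Whether the ACP1 difference lies with K700E or with this WT line was not tested.

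HMGA2, an architectural chromatin factor whose long 3′ UTR is a textbook target of the let-7 microRNA, had 6, 4, 6, 3 and 3% in K700E cells in run 1, against 30, 26, 36, 39 and 22% in WT cells. The groups were well apart in run 1 (difference -25.8 points, limma adjusted p = 0.0364). In run 2 HMGA2 had 13, 4, 3, 3 and 2% in K700E cells, against 35, 17, 39, 25 and 8% in WT cells. There the groups overlapped and the test was missed (limma adjusted p = 0.0932). K562 cells with overexpressed SRSF2 had 3 to 29% for HMGA2, and those with overexpressed U2AF1 3 to 27%, with no K700E listed. Most of these values lay below 22%, the lowest WT value of run 1 here. Whether the HMGA2 difference lies with K700E or with this WT line was not tested.

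HEATR1, needed for ribosome biogenesis, depended on the guide in WT cells. In run 1 it had 2% with sgRenilla, 2 and 2% with sgGPATCH8 and 0 and 0% with sgSUGP1 in K700E cells, against 16%, 41 and 38%, and 1 and 1% in WT cells. The WT sgSUGP1 libraries were thus as low as the K700E libraries, and the groups overlap although the test, made within guide targets, was passed (limma adjusted p = 0.0201). Run 2 gave 11%, 0 and 1%, and 0 and 1% in K700E cells, against 20%, 49 and 49%, and 1 and 1% in WT cells. Within WT cells the sgGPATCH8 libraries were above the single sgRenilla library by 23.5 points in run 1, which did not pass the test (limma adjusted p = 0.414).

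CLPB, a mitochondrial protein disaggregase, had 20, 37, 18, 19 and 15% in K700E cells in run 1, against 63, 51, 49, 61 and 49% in WT cells, which missed the threshold (limma adjusted p = 0.0695). In run 2 it had 4, 9, 6, 9 and 10% in K700E cells, against 37, 45, 39, 46 and 41% in WT cells, and was called (limma adjusted p = 0.0165). The groups were apart in both runs, while the level of WT cells differed between runs. ALDH5A1, which encodes succinate semialdehyde dehydrogenase, has an extension of 3396 nucleotides. In run 1 it had 4, 1, 1, 2 and 2% in K700E cells, against 5, 15, 14, 7 and 5% in WT cells. In run 2 it had 20, 3, 3, 0 and 1% in K700E cells, against 14, 31, 33, 10 and 18% in WT cells. The sgRenilla libraries were thus close in run 1 and in the opposite order in run 2, and the sgGPATCH8 libraries were furthest apart in both runs. SAR1A, a COPII coat GTPase, fell in run 1 to 6.2 ± 4.1% in K700E cells, against 22.2 ± 6.9% in WT cells (SD, n = 5 each).

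SELENOP, the selenium transport protein, went the other way. In run 1 its shorter UTR had 56, 40, 39, 52 and 43% in K700E cells, against 6, 12, 16, 17 and 18% in WT cells. In run 2 it had 65, 27, 39, 17 and 24% in K700E cells, against 7, 22, 23, 3 and 8% in WT cells, so that the groups, apart in run 1, overlapped in run 2. The difference was 35.2 points in run 1 (log2 ratio 2.69, SE 0.18, limma adjusted p = 0.0201) and 27.8 points in run 2. K562 cells with overexpressed SRSF2 had 22 to 46% for SELENOP, and those with overexpressed U2AF1 33 to 52%, with no K700E listed. All these values lay above 18%, the highest WT value of run 1 here. Whether the SELENOP difference lies with K700E or with this WT line was not tested. SLC2A4RG, a regulator of the glucose transporter gene SLC2A4, had 52, 47, 54, 53 and 41% in K700E cells in run 1, against 8, 8, 18, 33 and 33% in WT cells, which missed the threshold (limma adjusted p = 0.0632). In run 2 it rose, with 55, 49, 55, 34 and 43% in K700E cells, against 2, 1, 3, 16 and 6% in WT cells (limma adjusted p = 0.0242). CNTNAP1, a contactin-associated membrane protein, was the other member that rose in run 1, and its groups overlapped. It had 92, 78, 75, 68 and 64% in K700E cells, against 38, 77, 74, 56 and 58% in WT cells. The difference was thus largest with sgRenilla and hardly present with sgGPATCH8. In run 2 it had 89, 84, 86, 78 and 85% in K700E cells, against 86, 94, 93, 70 and 62% in WT cells.

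**Figure D3:**
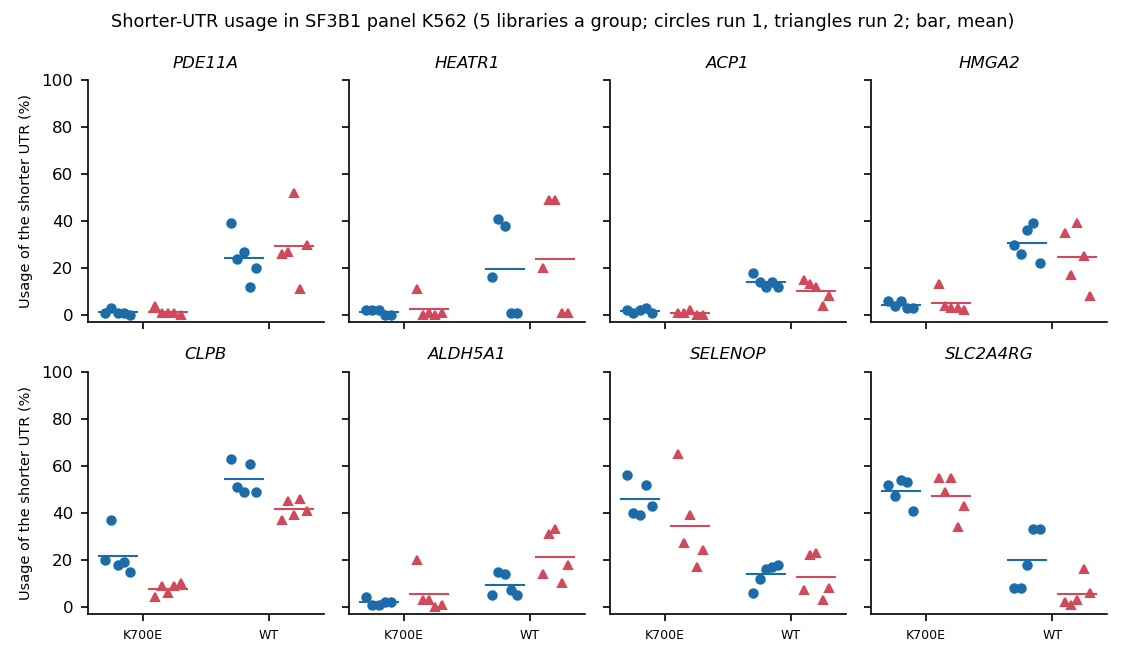
Usage of the shorter UTR (percent, vertical axis) of 8 members in K700E and WT K562 cells, with 5 libraries a group in run 1 (circles) and run 2 (triangles) and a bar at the mean. PDE11A, ACP1 and CLPB are lower in every K700E library than in every WT library of the same run, and SELENOP and SLC2A4RG are higher in K700E cells on average.

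Among further members called in run 2, DNMT3A, the DNA methyltransferase, rose to 15.8 ± 6.5% in K700E cells, against 5.0 ± 2.0% in WT cells (SD, n = 5 each). CERS6, a ceramide synthase, fell to 12.4 ± 2.7% in K700E cells, against 37.2 ± 6.1% in WT cells (SD, n = 5 each). SRA1 and MXD4 fell without overlap of the groups, by 21.0 and 23.3 points. MXD4 had 49, 46, 47, 5 and 9% in K700E cells, against 61, 61, 60, 52 and 50% in WT cells. The groups were only just apart, and the lowest values were those of the K700E sgSUGP1 libraries, which stand apart in run 2. CSPG4, PHF12 and POLR2C rose by 20.3, 17.3 and 9.3 points and COL4A5 fell by 20.3 points, each with groups that overlapped. POLR2C did not rise in run 1, with 26, 16, 25, 29 and 23% in K700E cells, against 25, 33, 33, 24 and 26% in WT cells. Its WT libraries had 0 to 2% in run 2.

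The counts of members called for guide effects in the SF3B1 panel differed between runs. In run 1 no member was called for loss of SUGP1 or GPATCH8 in either genotype, nor for either interaction with K700E, beside 0.0% of all events. By unadjusted p under 0.05, loss of GPATCH8 had 85 members in K700E cells, beside 8.21% of all events tested. In WT cells 145 members (7.67% of the 1891 tested) were higher and 29 (1.53%) lower with sgGPATCH8, beside 4.77% and 3.94% of all events. Loss of SUGP1 had 95 members under that p in K700E cells, beside 7.68%, and 119 (6.29%) higher and 30 (1.59%) lower in WT cells, beside 5.15% and 3.16%. The interactions had 77 members for SUGP1 and 149 for GPATCH8, beside 6.44% and 7.48% of all events. Each loss contrast rests on 2 libraries against 1. STAT5B, a signal transducer whose shorter end holds neither hexamer, had 19 and 13% with sgSUGP1 against 0% with sgRenilla in K700E cells, and 23 and 23% against 0% in WT cells, which did not pass the test (limma adjusted p = 0.465 and 0.113). In run 2 STAT5B had 6 and 7% with sgSUGP1 against 19% with sgRenilla in K700E cells, the opposite order, and 18 and 24% against 14% in WT cells.

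In run 2 many members were called, and the libraries concerned stand apart in tandem UTR usage as a whole. The median over members was 62.5% in the K700E sgRenilla library of run 2, and the medians of the sgGPATCH8 libraries in WT cells were 56 and 58%. In run 1 the same K700E sgRenilla and WT sgGPATCH8 libraries had medians of 39, 44 and 44%. The K700E sgSUGP1 libraries had 29 and 31% in run 2 and 42 and 38% in run 1. Every run 1 library lay between 38 and 45%.

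**Figure D4:**
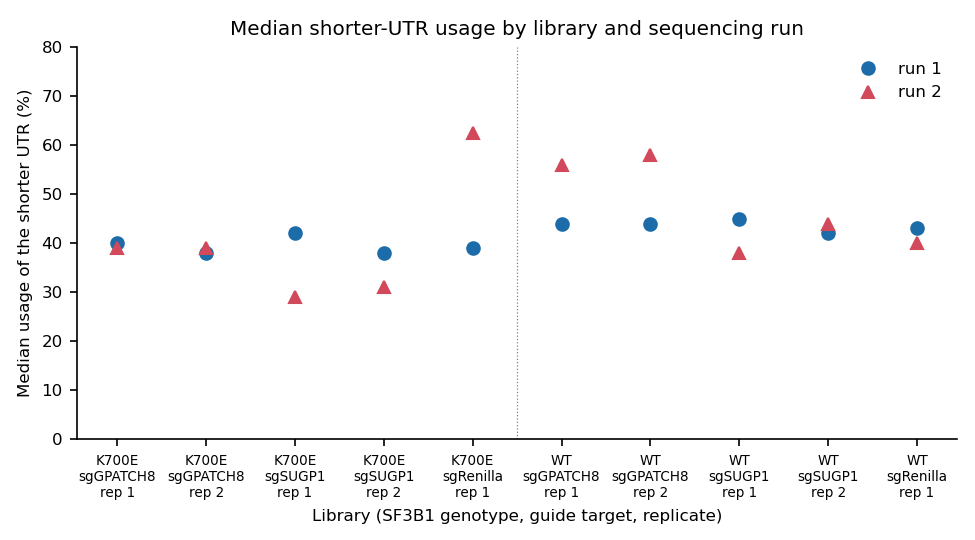
Median usage of the shorter UTR over members with a value in every library (percent, vertical axis) for the 10 libraries of the SF3B1 panel in run 1 (circles) and run 2 (triangles), K700E left of the dotted line and WT right of it. Run 1 stays between 38 and 45%, while in run 2 the K700E sgRenilla library stands at 62.5%, the WT sgGPATCH8 libraries at 56 and 58% and the K700E sgSUGP1 libraries at 29 and 31%.

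Compared event by event, 1852 members were higher and 253 lower in run 2 than in run 1 of the K700E sgRenilla library, with a median difference of 12 points. The WT sgGPATCH8 libraries differed between runs by a median of 5 and 7 points, and the K700E sgSUGP1 libraries by -4 and -2 points. The median of the other event types was 0 in all 10 libraries. Members moved by 20 points or more in 35.5% of cases in the K700E sgRenilla library and in 7.99 to 23.6% in the other 9, against 3.54 to 5.55% of the events of other types. Over all libraries 399 of 2007 members were called higher in run 2 and 89 lower, 24.3% in all, beside 8.86% of all events; retained introns had 15.7%, skipped exons 8.26% and alternative 3′ splice sites 4.81%. The part of depth, sequencing or library handling in these differences was not tested.

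With those libraries in the contrast, loss of SUGP1 in K700E cells had 544 members lower and 2 higher of 2065 in run 2, 26.4% in all, beside 2.3% of all events, with a median of -18.5 points. Without the K700E sgSUGP1 replicate 1 library 0 calls were left, and without replicate 2 62, while averaging the runs of each library gave 116. Loss of GPATCH8 in K700E cells had 28 lower and 0 higher, beside 0.074% of all events, and loss of GPATCH8 in WT cells had 6 higher and 0 lower, beside 0.0123%. Each of these lost all calls without either 1 of its 2 sgGPATCH8 libraries. The 6 calls in WT cells were the only ones among all 48634 events of that contrast. Loss of SUGP1 in WT cells had 0 calls in run 2 by limma, beside 0.0% of all events, with 108 members at an unadjusted p under 0.05, beside 7.74%.

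The 6 members called for GPATCH8 loss in WT cells were XK, TM9SF2, MARS2, MATR3, MAP1LC3B and TFRC. They encode a blood group membrane protein, an endosomal membrane protein, a mitochondrial methionyl-tRNA synthetase, a nuclear matrix RNA-binding protein, an autophagosome protein and the transferrin receptor. XK had 35 and 45% with sgGPATCH8 in WT cells of run 2, against 0% with sgRenilla. In K700E cells of run 2 XK had 1 and 1% with sgGPATCH8, against 52% with sgRenilla. TFRC had 18 and 20% with sgGPATCH8 against 0% with sgRenilla in WT cells, and 0 and 0% against 27% in K700E cells. The K700E sgRenilla library and both WT sgGPATCH8 libraries were thus high for these genes, in opposite directions with respect to the guide. Taking the genotypes together, all 6 were among the 226 members called lower, and 0 higher, in the interaction of K700E with GPATCH8 loss in run 2 (10.9% of members, beside 0.637% of all events). In run 1 that interaction had 0 calls. Of the 190 members called in run 2 and tested in both runs, 62 had the same sign in run 1, with a median of 3.5 points in run 1 and -72.5 points in run 2. Leaving out 1 library gave between 15 and 40 calls in run 2. The interaction of K700E with SUGP1 loss had 39 members lower and 0 higher in run 2, beside 0.109% of all events, and 0 once any 1 library was left out.

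Among the members with the largest differences for SUGP1 loss in K700E cells of run 2, DUSP1, a MAP kinase phosphatase, averaged 3.0% with sgSUGP1, against 86% with sgRenilla. TBP, the TATA-binding protein, averaged 8.5% with sgSUGP1 against 90% with sgRenilla. RNMT, the mRNA cap methyltransferase, and ADM2 were the 2 members that rose, with 21 and 15% with sgSUGP1 against 0% with sgRenilla. For H3F3A, a histone H3.3 gene with near-identical copies whose reads may be shared, the K700E sgRenilla library had 85% in run 2 and 0% in run 1. A test of the difference between runs called no member for any of the 3 contrasts it was made for, beside 0.0% of all events. Under an unadjusted p of 0.05 it had 1072 members (53.4%) lower and 21 (1.05%) higher for SUGP1 loss in K700E cells, beside 8.76% and 4.29% of all events, and 725 (36.1%) and 34 (1.69%) for GPATCH8 loss in K700E cells, beside 6.57% and 3.03%. For K700E against WT it had 165 in both directions, beside 7.32%.

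SRSF2 P95H changed members in both directions. With sgGPATCH8, 30 of 1864 members rose and 20 fell in P95H against WT SRSF2 cells, 2.68%, beside 4.07% of all events. With sgRenilla 6 rose and 1 fell, 0.376%, beside 1.08%. Loss of GPATCH8 in P95H cells had 32 members higher and 27 lower, 3.17%, beside 4.84%, and in WT SRSF2 cells 3 higher and 0 lower, 0.161%, beside 0.492%. Members were thus called at a smaller share than all events in each of these 4 comparisons. Whichever of the 6 libraries of a comparison was left out, the counts were between 16 and 28, 1 and 3, 23 and 32, and 1 and 4 in that order. The interaction of P95H with GPATCH8 loss called 2 members, ARG2 and STXBP5, 0.107%, beside 0.0615% of all events.

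In the SRSF2 panel too the counts were set out by extension. With sgRenilla, 25 of 139 members extended by over 2500 nucleotides were higher and 2 lower in P95H than in WT SRSF2 cells at an unadjusted p under 0.05, and of 583 extended by up to 300 nucleotides 13 were higher and 14 lower. Over all events 7.61% were higher and 6.76% lower. With sgGPATCH8 the longest class had 31 higher and 7 lower, and the shortest 33 and 22, while 9.6% of all events were higher and 10.6% lower. For GPATCH8 loss in P95H cells the share called was 1.2, 2.52, 5.39 and 7.91% from the shortest to the longest class. For GPATCH8 loss in WT SRSF2 cells it was 0.0, 0.28, 0.234 and 0.0%. At an unadjusted p under 0.05, 2.74, 2.38, 7.03 and 15.8% of members were higher there and 4.97, 3.78, 4.45 and 3.6% lower. The share higher in the longest class was thus not particular to P95H cells. The difference between classes was not tested.

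ARG2, the mitochondrial arginase, had the larger of the 2 called interactions. Its shorter UTR had 21, 20 and 21% in P95H cells with sgGPATCH8, against 51, 51 and 49% in P95H cells with sgRenilla. In WT SRSF2 cells it had 60, 61 and 59% with sgGPATCH8, against 43, 47 and 42% with sgRenilla. No 2 of the 4 groups overlapped, and loss of GPATCH8 went with lower usage in P95H cells and higher usage in WT SRSF2 cells. The difference was -29.7 points in P95H cells (limma adjusted p = 7.69e-05) and 16 points in WT SRSF2 cells (limma adjusted p = 0.0107), and the interaction was -45.7 points (log2 ratio -2.82, SE 0.17, limma adjusted p = 0.000748). The interaction and the fall in P95H cells were called whichever library was left out, and the rise in WT SRSF2 cells was lost without any of 4 of its 6 libraries, namely replicate 1 or 2 of sgGPATCH8 and replicate 1 or 3 of sgRenilla.

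ARG2 also varied between libraries of 1 group elsewhere. In the U2AF1 panel it had 4 to 7% in the replicate 1 libraries and 17 to 27% in the other 8. In WT cells of the SF3B1 panel it had 1 to 8% in run 1 and 16 to 21% in run 2. In that panel ARG2 was also called for K700E against WT in run 2, but not in run 1. In 293T cells it had 33, 29, 33 and 25% with sgGPATCH8, against 18 and 19% with sgRenilla. Of 28 events named in the SRSF2 panel, 9 had all 4 U2AF1 replicate 1 libraries outside the range of the other 8, ARG2, STXBP5, SLC2A4RG, PTGS1, RANBP3, KCTD10 and TNRC6B among them. Over members with a value in every library of that panel it was 139 of 2253. JAM2, among the 28, had a missing value among the other libraries and was not judged. STXBP5 had 22 to 24% in the replicate 1 libraries and 28 to 51% in the other 8. Whether a library effect of this kind has a part in the SRSF2 results was not tested. The labels there list a further sequencing run for replicate 3 of P95H cells with sgGPATCH8 and name no other batch. That replicate has 1 column, and whether it holds 1 run or both is not given.

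STXBP5 encodes tomosyn, a regulator of vesicle fusion. It had 37, 40 and 36% in P95H cells with sgGPATCH8, against 52, 52 and 51% in P95H cells with sgRenilla, and in WT SRSF2 cells 46, 50 and 46% with sgGPATCH8, against 39, 37 and 39% with sgRenilla. Each genotype's groups were apart and in opposite order, as for ARG2. The fall in P95H cells was called whichever library was left out (-14.0 points, limma adjusted p = 0.00718), while the interaction of -23.0 points (limma adjusted p = 0.0428) was lost each time.

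DENND1A, an exchange factor for RAB35, rose with GPATCH8 loss in both genotypes. It had 32, 25 and 36% in P95H cells with sgGPATCH8, against 7, 10 and 11% with sgRenilla, and in WT SRSF2 cells 23, 14 and 24%, against 1, 1 and 2%. The groups were apart, and both rises (21.7 points, limma adjusted p = 0.00635, and 19.0 points, limma adjusted p = 0.000963) were called whichever library was left out. In the SF3B1 panel DENND1A had 8 to 27% in K700E cells and 25 to 47% in WT cells of run 1, which did not pass the test (limma adjusted p = 0.153).

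HEATR1 had 30, 37 and 36% in P95H cells with sgGPATCH8, against 17, 22 and 19% with sgRenilla. In WT SRSF2 cells it had 8, 10 and 12% with sgGPATCH8, against 14, 13 and 15% with sgRenilla. The difference between P95H and WT SRSF2 cells with sgGPATCH8 was 24.3 points (limma adjusted p = 0.00104). SLC2A4RG had 2, 1 and 3% in P95H cells with sgGPATCH8, against 24, 30 and 35% in WT SRSF2 cells with sgGPATCH8, a fall by 27.7 points (limma adjusted p = 0.00267). Both genes kept these calls whichever library was left out. SLC2A4RG also had 1 to 4% in the U2AF1 replicate 1 libraries and 13 to 34% in the other 8, and the part of a library effect was not tested. Both went the other way from K700E against WT in the SF3B1 panel, where HEATR1 was lower and SLC2A4RG higher.

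**Figure D5:**
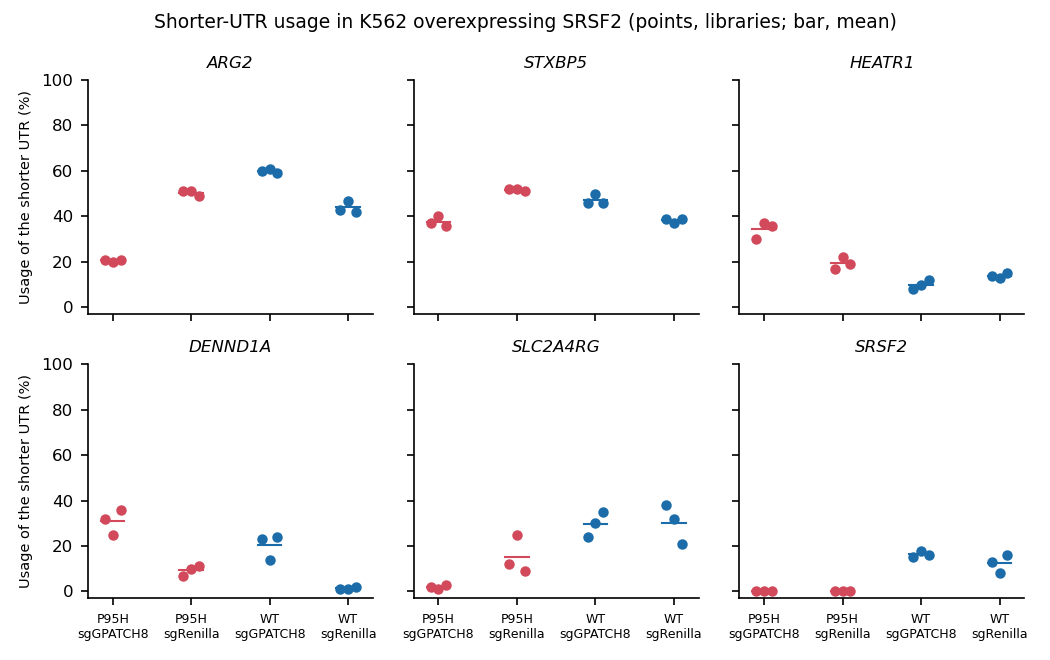
Usage of the shorter UTR (percent, vertical axis) of 6 members in K562 cells overexpressing SRSF2 P95H (red) or WT SRSF2 (blue) with sgGPATCH8 or sgRenilla, 3 libraries a group with a bar at the mean. ARG2 falls to 20 to 21% in P95H cells with sgGPATCH8, DENND1A is higher with sgGPATCH8 in both genotypes, and the SRSF2 event is at 0% in every P95H library.

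The tandem UTR event of SRSF2 itself was listed at 0% in all 6 P95H libraries. In WT SRSF2 cells it had 15, 18 and 16% with sgGPATCH8 and 13, 8 and 16% with sgRenilla, and it was listed at 0% in every library of the other panels. Transcripts of the introduced SRSF2 and of the gene itself cannot be told apart in these values. With sgRenilla this was the single member called lower in P95H cells (limma adjusted p = 0.000995), whichever library was left out. The 6 that rose were SRGAP2, STXBP5, HEMK1, ATG13, SMURF1 and DENND1A. SRGAP2, which has recent duplicates that may share its reads, had 63.7 ± 1.2% in P95H cells and 47.7 ± 2.1% in WT SRSF2 cells (SD, n = 3 each). Each of these 6 lost its call when at least 4 of the 6 libraries were left out in turn.

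Other members differed between P95H and WT SRSF2 cells with sgGPATCH8. SRSF6, another SR protein, rose to 57.7 ± 0.6% in P95H cells, against 38.7 ± 3.1% in WT SRSF2 cells (SD, n = 3 each). PTGS1, cyclooxygenase 1, rose to 69.3 ± 0.6% against 53.0 ± 2.0%, and RANBP3, a nuclear export cofactor, fell to 24.3 ± 1.5% against 45 ± 3.5%. These 3 kept their calls whichever library was left out, whereas CYP19A1, JAM2 and CNTNAP1 lost theirs each time. In the U2AF1 panel PTGS1 had 74 to 80% in the replicate 1 libraries and 49 to 64% in the other 8, and RANBP3 had 8 to 12% and 21 to 44%. For GPATCH8 loss in P95H cells VWA5A rose to 66 ± 1.7% with sgGPATCH8, against 37.7 ± 5.5% with sgRenilla, and KCTD10 to 41.7 ± 1.2% against 25.3 ± 1.5% (SD, n = 3 each), both kept each time. TNRC6B, a scaffold of microRNA silencing, has the longest extension of all members (12225 nucleotides) and rose to 57.3 ± 2.3% with sgGPATCH8, against 39.3 ± 4.0% with sgRenilla, a call lost without 5 of the 6 libraries in turn. The U2AF1 replicate 1 libraries were also high for both KCTD10 (49 to 53%, against 30 to 43% in the other 8) and TNRC6B (59 to 74%, against 44 to 57%). FANCA, a DNA repair protein, was the third member to rise with GPATCH8 loss in WT SRSF2 cells, with 8.67 ± 4.6% against 0.333 ± 0.6%, and lost its call without sgRenilla replicate 2 or 3.

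In the U2AF1 panel limma called none of 1864 members in any of 5 comparisons. All events had 0.0023% called for S34F against WT U2AF1 with sgRenilla, 0.023% with sgGPATCH8, 0.0346% for GPATCH8 loss in S34F cells, 0.0322% in WT U2AF1 cells and 0.0% for the interaction. The members under an unadjusted p of 0.05 numbered 71 for S34F with sgRenilla (all events 9.33%), 99 with sgGPATCH8 (11.6%), 84 for GPATCH8 loss in S34F cells (6.99%), 54 in WT U2AF1 cells (4.87%) and 59 for the interaction (4.4%), of 1864 each. Without the replicate 1 libraries all 5 still had 0 calls. With the replicate number as a block, S34F against WT U2AF1 with sgGPATCH8 had 8 calls, KLHDC8A and TSC1 among them, and the count thus depends on that choice. KLHDC8A had the largest of the differences followed up, 33.3 ± 11.5% in S34F cells and 84.3 ± 13.4% in WT U2AF1 cells with sgGPATCH8 (SD, n = 3 each), and missed the test without the block (limma adjusted p = 0.084). TSC1, the tuberous sclerosis gene, had 8.33 ± 0.6% in S34F cells and 19.7 ± 3.8% in WT U2AF1 cells with sgGPATCH8 (SD, n = 3 each; limma adjusted p = 0.106).

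In 293T cells limma called none of 2083 members for loss of GPATCH8, beside 0.0673% of all events, nor for loss of SUGP1, beside 0.0428%. With sgGPATCH8 1461 members had a higher and 575 a lower mean than with sgRenilla, a median difference of 2.0 points, against 0.25 over all events. At an unadjusted p under 0.05, 145 (6.96%) were higher and 29 (1.39%) lower, beside 4.4% and 3.7% of all events, and the share higher was between 6.41% and 7.46% in all 4 extension classes. With sgSUGP1 112 members reached that level, beside 7.36% of all events. The library medians were 37, 40, 38 and 37% with sgGPATCH8, 34, 33, 36 and 34% with sgSUGP1 and 35 and 34% with sgRenilla, so the sgGPATCH8 libraries were all above both sgRenilla libraries. NLK, a kinase related to the MAP kinases, had 29.8 ± 3.2% with sgGPATCH8 (n = 4), against 3 and 12% with sgRenilla (limma adjusted p = 0.201). IGF2BP1, an oncofetal RNA-binding protein with an extension of 5858 nucleotides, had 18.5 ± 3.0% with sgGPATCH8 (n = 4), against 8 and 9% with sgRenilla (limma adjusted p = 0.257). PDGFRA, a growth factor receptor, had 69.8 ± 8.1% with sgSUGP1 (n = 4), against 25 and 37% with sgRenilla (limma adjusted p = 0.235). The values of these 3 genes did not overlap between the groups, but none passed the test.

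Among 26 genes of the cleavage and polyadenylation machinery, CSTF1, CSTF2T, PCF11 and SRSF7 have a tandem UTR event of their own. None of the 4 was called in the comparisons of run 1, of the SRSF2, U2AF1 and 293T panels or of K700E against WT in run 2. PCF11, a termination factor, was called in run 2, with a mean of 48.0% with sgSUGP1 and 86.0% with sgRenilla in K700E cells (limma adjusted p = 0.0337), and was also called in the interaction of K700E with GPATCH8 loss. CSTF1, a CstF subunit, was called higher in run 2 than in run 1 over all libraries, by 20 points. Of 22 genes listed for alternative UTR length, CCND2, CD47, CDC6, HMGA2, IGF2BP1, PAK1 and PTBP1 had an event tested in the SF3B1 panel. HMGA2 was the member of that list called in K700E against WT in run 1, and 4 of the 7 were lower and 0 higher at an unadjusted p under 0.05 in each run, where 18.2% and 17.4% of all members and 6.83% and 6.73% of all events were lower. CD47, which encodes an inhibitory signal to phagocytes, rose with GPATCH8 loss in P95H cells, to a mean of 84.7% with sgGPATCH8 against 78.7% with sgRenilla (limma adjusted p = 0.0442). PTBP1, a splicing repressor, averaged 2.5% with sgSUGP1 and 47.0% with sgRenilla in K700E cells of run 2, the contrast in which IGF2BP1 was also called lower.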

How the data were processed

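RNA was measured in 55 listed K562 and 293T samples, as 54 columns in the 4 files. Per the labels' protocols, libraries were poly(A)-selected, strand-specific by the dUTP method and sequenced as paired ends. The human build was hg19 (GRCh37), and the tools named are TopHat, TopHat2 2.0.8b, Bowtie and RSEM 1.2.4, per the submitters' processing notes. What each tool did, and when a value is missing, is not given in the sources used here. The deposited values are a fraction per event and column, from 0 to 1, read as the share of the isoform listed first, which is the shorter UTR; they carry no read counts, so depth is unknown. A percentage here is that fraction times 100.

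Events with a value in every library of a panel, and with some group mean of at least 5% and some of at most 95%, were tested with limma 3.58.1 in R 4.3.3 (data.table, version 1.17.8). The test used log2 of usage over non-usage with 0.01 added to both, a mean-variance trend and Benjamini-Hochberg adjustment over all events of a panel. The fit was tested on simulated data. In the SF3B1 panel each run was fitted alone, and K700E against WT weighted the 3 guide targets equally, so its difference in points can depart from that of the plain means. Gene names come from matching distances between splice sites to GENCODE 29: 1887 events through their own gene and 654 through neighbouring genes.

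Named were up to 6 called events a direction with the largest difference, or the 3 with the lowest p among those of at least 10 points where fewer than 3 were called; up to 12 of at least 10 points and an unadjusted p under 0.05 in both runs; and the 12 called in most comparisons. Members and lists were chosen with earlier results of these data known, and the list members and the SRSF2 event in other panels were named after their values were seen. Alternatives were another offset, no limit on group means, a single missing value allowed, each library left out, averaged runs and a replicate block.

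Replicate numbers pair the U2AF1 samples by the data for GPATCH8 loss in WT cells (correlation of same-numbered deviations 0.123 to 0.357) and S34F against WT with sgRenilla (0.152 to 0.402).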

Additional observations from a re-analysis of the deposited data

Results flagged for a closer look

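In 293T cells 2 values stood far from the rest of their group, among 14 groups checked, where chance flags about 1 in 20. NLK had 25% in 1 sgGPATCH8 library, with 31, 31 and 32% in the other 3. AMN1 had 42% in 1 sgGPATCH8 library, with 36, 36 and 37% in the other 3. Effects of GPATCH8 or SUGP1 loss differed between genotypes in 3 comparisons by an interaction test in limma with adjustment over all events. In run 2 of the SF3B1 panel the effect of SUGP1 loss differed between K700E and WT cells in 39 members, and that of GPATCH8 loss in 226. In run 1 both counts were 0, and the K700E sgRenilla library of run 2, the only control of its genotype in that run, had the highest median usage of the panel. In the SRSF2 panel the effect of GPATCH8 loss differed between P95H and WT SRSF2 cells in 2 members. The interaction was -45.7 points for ARG2 and -23 points for STXBP5.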

How the results depend on the processing

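Counts of called members were recomputed under every alternative. For K700E against WT the 8 calls of run 1 became 0 with each library left out, 32 with no limit on group means, 0 without sgGPATCH8, 2 without sgRenilla and 0 without sgSUGP1 libraries, and 135 with runs averaged. The 27 of run 2 became 0 with each library left out, 13 with 1 missing value allowed, 60 with no limit, 0 without sgGPATCH8, 374 without sgRenilla, 0 without sgSUGP1 and 135 with runs averaged. Leaving out guide targets was chosen after seeing the data, as were single 293T guides and the U2AF1 fit without replicate 1, which changed no count.

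For GPATCH8 loss in K700E cells, run 1 had 0 calls, 1 with no limit and 8 with runs averaged. Run 2 had 28, and 0 to 0 with a library left out, 109 with no limit, 59 with an offset of 0.05 and 8 averaged. In WT cells run 1 had 0, 6 with no limit and 4 averaged, and run 2 had 6, 0 to 0, 49 with no limit and 25 with the offset. For SUGP1 loss in K700E cells run 1 had 0, 3 with no limit and 116 averaged, and run 2 had 546, 0 to 62 with a library left out and 116 averaged. In WT cells run 1 had 0, 8 with no limit and 1 averaged, and run 2 had 0 and 1 averaged. The interaction with GPATCH8 loss had 0 in run 1, 7 with no limit and 48 averaged, and 226 in run 2, 15 to 40 with a library left out and 48 averaged. That with SUGP1 loss had 0 in run 1 and 3 with no limit, and 39 in run 2, 0 to 0 with a library left out, 164 with no limit, 83 with the offset and 0 averaged. Run 2 against run 1 had 488, and 288 to 369 with a library left out.

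With a library left out, P95H against WT had 16 to 28 in place of 50 calls with sgGPATCH8 and 1 to 3 in place of 7 with sgRenilla, GPATCH8 loss 23 to 32 in place of 59 in P95H and 1 to 4 in place of 3 in WT SRSF2 cells, and the interaction 1 to 2 in place of 2, with 1 when 1 missing value was allowed and 11 with no limit. In the U2AF1 panel 3 of the counts of 0 reached 0 to 1: GPATCH8 loss in S34F and in WT cells, and S34F with sgGPATCH8.

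Samples share only a number in the SF3B1, SRSF2 and 293T panels. With a replicate block K700E against WT had 3 calls in run 1 and 0 in run 2, P95H against WT 27 with sgGPATCH8 and 2 with sgRenilla, GPATCH8 loss in P95H cells 37 and the SRSF2 interaction 1. In the U2AF1 panel all 12 samples correlated best with their own number, a hint from the data and not the design. The block left the paired comparisons at 0, and S34F with sgGPATCH8, whose correlations were 0.075 to 0.243, had 8 calls in place of 0.

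For single named events 2124 values kept their side of the threshold, 633 lost the call, 53 gained it and 4 turned sign, all 4 on averaging runs and none of them called: LDHD for the K700E and GPATCH8 interaction in run 1 to 1.8 points, LSM6 for SUGP1 loss in WT cells in run 2 to -1 points, and NCOR1 in K700E cells in run 1 to -13 points for GPATCH8 loss and -20.8 points for SUGP1 loss. The causes were not tested; in the SF3B1 panel leaving out a library leaves fewer samples, and a lone library is then assumed to vary like the others. Depth is unknown, so the precision of a low percentage cannot be given.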
